A study of Mus musculus with 10 samples.

Results

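The 10 genes described here, Smad7, Smad6, Skil, Ski, Pmepa1, Ldlrad4, Bambi, Smurf1, Smurf2 and Tgif1, encode intracellular or membrane inhibitors of Tgf-beta family signalling. They were chosen by name from the 52459 gene symbols of the deposited count table, and all 10 passed the filter on low counts that kept 18818 genes. RNA was sequenced from mouse cells that were led from embryonic stem cells towards neuromesodermal progenitors, the cells of the embryo's tail end that give rise to spinal cord and to trunk and tail mesoderm. The cells were the wild-type line ES-Bruce4, of strain C57BL/6, in 5 groups with 2 libraries each. D7G cells were collected on day 7, after 24 h with 50 ng/ml human Gdf11 added on day 6, and D7 cells were collected on the same day without Gdf11. D6, D3 and D2 cells were collected untreated on days 6, 3 and 2. All groups had received bFgf at 10 ng/ml from day 0. CHIR99021, an inhibitor of the kinase Gsk3 that activates Wnt signalling, was given at 5 µM on day 2, so the D3 and later groups had seen it. The protocol also split the cells on day 3, after the D2 cells were collected. All groups thus come from 1 cell line, in a culture dish and on 1 genetic background, and the stem cells had been grown on mouse embryo fibroblasts, which were depleted 1 time before differentiation.

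Ligands of the Tgf-beta family, Gdf11 among them, assemble type 1 and type 2 receptor kinases at the cell surface. Gdf11, Activin and Tgf-beta lead to phosphorylation of Smad2 and Smad3, and Bmps to that of Smad1, Smad5 and Smad9; each joins Smad4 and acts on genes in the nucleus. Several genes switched on in this way encode inhibitors of the same pathway, a negative feedback loop. They act at the receptors (Smad7, Smad6, Bambi), on access of Smad2 and Smad3 to the receptors (Pmepa1, Ldlrad4), in the nucleus as corepressors (Skil, Ski, Tgif1) or by ubiquitination (Smurf1, Smurf2). Gdf11 itself is known in the mouse for its part in the change from trunk to tail formation.

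Depth was 31078950 to 33418015 counts per library, mitochondrial genes took 1.86% to 2.48% of them, and replicates of every group differed by more than counting noise. Expression is given in CPM, counts brought to a common library total and scaled for library composition by the TMM method, and a gene is called higher or lower when its adjusted p in edgeR's quasi-likelihood test is under 0.05. The labels do not say whether the libraries of a group came from separate cultures, so a p value covers no more than the variation among them, which can be technical. Stage markers followed the labels in part. Fgf5, an epiblast gene, stood at 19.7 and 20.1 CPM in D2 cells and at most at 1.25 CPM in any later library. Pou5f1, another epiblast gene, fell less. Its mean was 565 CPM on D2, 255 CPM on D3 and 147 CPM on D6. It was 161 CPM in D7G cells and 128 CPM in D7 cells. T, a marker of the primitive streak and of neuromesodermal progenitors, stood at 0.982 and 0.856 CPM on D2, 231 and 233 CPM on D3, 40.1 and 43.3 CPM on D6, 29.1 and 29.4 CPM in D7G cells and 20.3 and 19.3 CPM in D7 cells. Sox2, the other defining marker of these progenitors, lay between 159 and 235 CPM in every library. In such bulk RNA, fewer cells of a type and less RNA per cell cannot be told apart.

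After 24 h with Gdf11, 8 of the 10 inhibitor genes were called higher in D7G cells than in D7 cells and 0 were called lower, by edgeR; Smurf2 and Ski were not called. Among all 18818 tested genes, 40.7% were called in this comparison, 22.5% higher and 18.2% lower. The median log2 fold change was 0.45 over the 10 inhibitors and 0.02 over all tested genes. DESeq2 called 7 of the 8 higher, all but Smad6. Sizes differed widely within the set, with Ldlrad4 and Pmepa1 in front, Smad7 and Skil next, and the other 6 below 0.5 on the log2 scale.

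**Figure D1:**
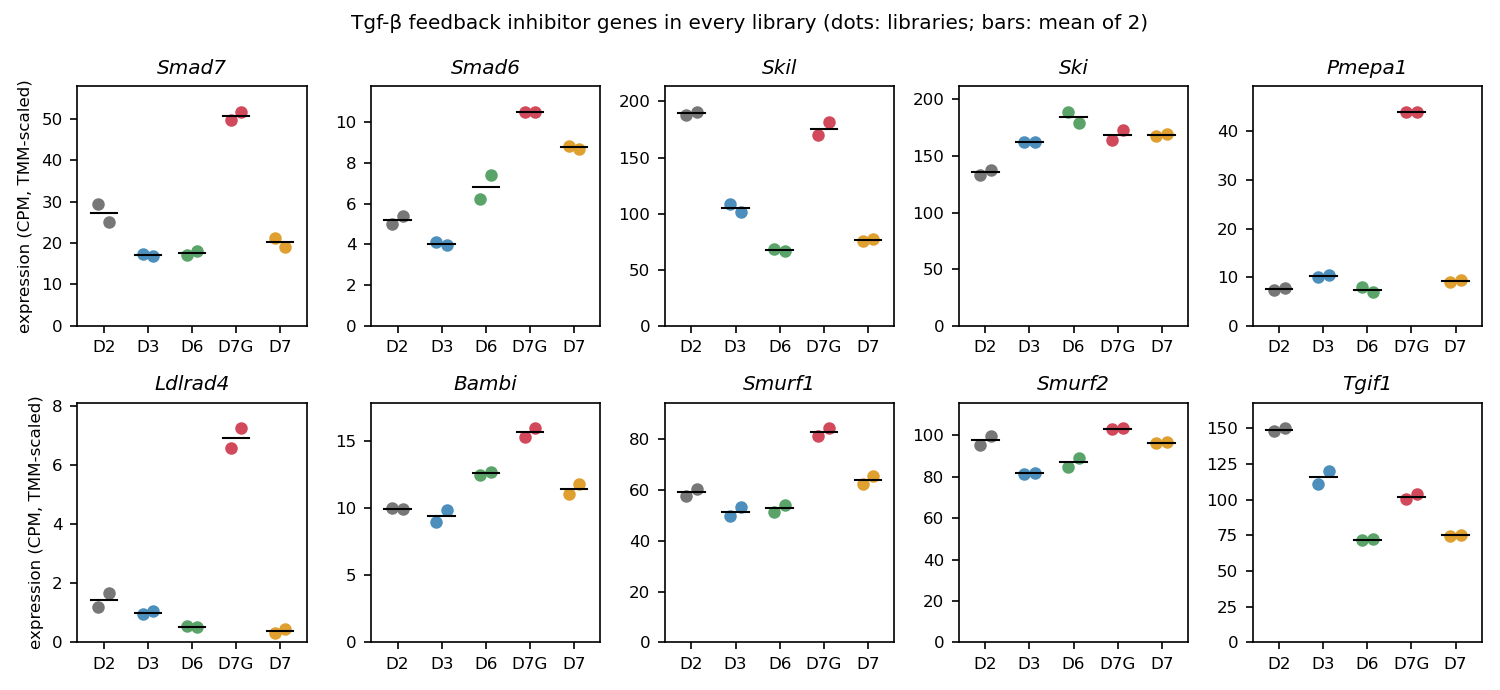
Expression of the 10 genes in each library, in TMM-scaled CPM on linear axes that start at 0, with groups D2, D3, D6, D7G and D7 from left to right; dots are libraries and bars are means of 2. The D7G libraries of Ldlrad4, Pmepa1 and Smad7 stand above all 8 other libraries, whereas those of Skil stand below both D2 libraries and those of Tgif1 below D2 and D3.

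Pmepa1 and Ldlrad4 encode related membrane proteins that bind Smad2 and Smad3 and keep them from the receptor complex, as shown in human cells. Pmepa1 lies on mouse chromosome 2 (chr2:173224458-173276533, minus strand, mm10). Its RNA stood at 43.9 and 44.0 CPM in D7G libraries, against 9.10 and 9.45 CPM in D7 libraries. Both treated libraries were more than 4-fold above both untreated ones. The log2 fold change was 2.24 ± 0.07 (SE, n = 2 each), a 4.74-fold difference with an edgeR adjusted p of 6.82e-15, and it held the rank 175 among all positive fold changes.

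Ldlrad4, on chromosome 18, had the largest fold change of the set. Its counts were 210 and 233 in D7G libraries and 11 and 15 in D7 libraries, which is 6.58 and 7.24 CPM against 0.329 and 0.452 CPM. The groups were far apart, although the untreated level rested on few counts. The log2 fold change was 4.13 ± 0.22, or 17.6-fold (edgeR adjusted p = 7.36e-12), the rank 20 among all positive fold changes, and it ranged from 3.61 to 4.35 over 18 alternative settings. In GENCODE, Ldlrad4 overlaps exons of Fam210a and of the miRNA gene Mir7219 on the other strand, but the exon models deposited with the counts shared 0 bases with either. Whether strand was used in counting is not given in the sources used here.

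Smad7 binds activated type 1 receptors of all branches of the family and brings Smurf ubiquitin ligases to them, while Smad6, its paralogue, acts mainly on Bmp receptors and on Smad1. Smad7 stood at 49.6 and 51.7 CPM in D7G libraries, against 21.2 and 19.1 CPM in D7 libraries. Both treated libraries exceeded every other library of the study, the next being a D2 library at 29.3 CPM. Its log2 fold change against D7 was 1.33 ± 0.07, or 2.52-fold (edgeR adjusted p = 9.52e-12).

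Smad6 differed far less, with 10.5 CPM in both D7G libraries and 8.83 and 8.70 CPM in D7 libraries. These did not overlap, and the difference was called (log2 fold change 0.26 ± 0.10, edgeR adjusted p = 0.0390). The call was lost in 10 of 18 alternatives, with adjusted p from 0.0276 to 0.224. Among those that lost it were DESeq2 (0.224), edgeR with no filter on low counts (0.103) and the fits without either D7G or either D7 library.

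Bambi, a membrane protein that resembles a type 1 receptor but lacks the kinase, stood at 15.3 and 15.9 CPM in D7G libraries and 11.0 and 11.8 CPM in D7 libraries. The treated libraries lay above the untreated ones and also above all libraries of the earlier days. The log2 fold change was 0.45 ± 0.08 (edgeR adjusted p = 0.000137).

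The 3 nuclear corepressors responded in 3 ways. Skil, which encodes SnoN, a corepressor that binds Smad2, Smad3 and Smad4 on their target genes, stood at 170 and 181 CPM in D7G libraries, against 76.0 and 77.8 CPM in D7 libraries. Its log2 fold change was 1.19 ± 0.04, or 2.28-fold (edgeR adjusted p = 3.89e-14). Both treated libraries were more than 2-fold above either untreated one, yet they stayed below the D2 libraries at 188 and 191 CPM.

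Ski, the paralogue of Skil and a corepressor of the same Smads, stood at 165 and 173 CPM in D7G libraries and at 167 and 169 CPM in D7 libraries. The untreated values lay inside the range of the treated ones. The log2 fold change was 0.00 ± 0.04 (edgeR adjusted p = 0.947) and stayed between -0.05 and 0.01 over 18 alternatives.

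Tgif1, a homeodomain protein that recruits histone deacetylases to Smad2 and also represses retinoid-responsive genes, was intermediate. It stood at 100.1 and 104 CPM in D7G libraries and at 74.7 and 75.2 CPM in D7 libraries, with no overlap (log2 fold change 0.44 ± 0.04, edgeR adjusted p = 9.95e-08).

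Smurf1 and Smurf2 are paralogous ubiquitin ligases. Smurf1 was first known for the breakdown of the Bmp Smads, and both ligases act on receptors when bound to Smad7 or Smad6. Smurf1 stood at 81.4 and 84.4 CPM in D7G libraries and at 62.6 and 65.6 CPM in D7 libraries (log2 fold change 0.37 ± 0.05, edgeR adjusted p = 4.74e-06). Smurf2 stood at 103 CPM in both D7G libraries and at 96.1 and 96.9 CPM in D7 libraries. The Smurf2 groups did not overlap, but its log2 fold change of 0.10 ± 0.04 did not pass the test (edgeR adjusted p = 0.0636, and 0.0523 to 0.303 over 18 alternatives). In the deposited exon models Smurf2 shares 58 bases with the miRNA gene Gm27322.

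**Figure D2:**
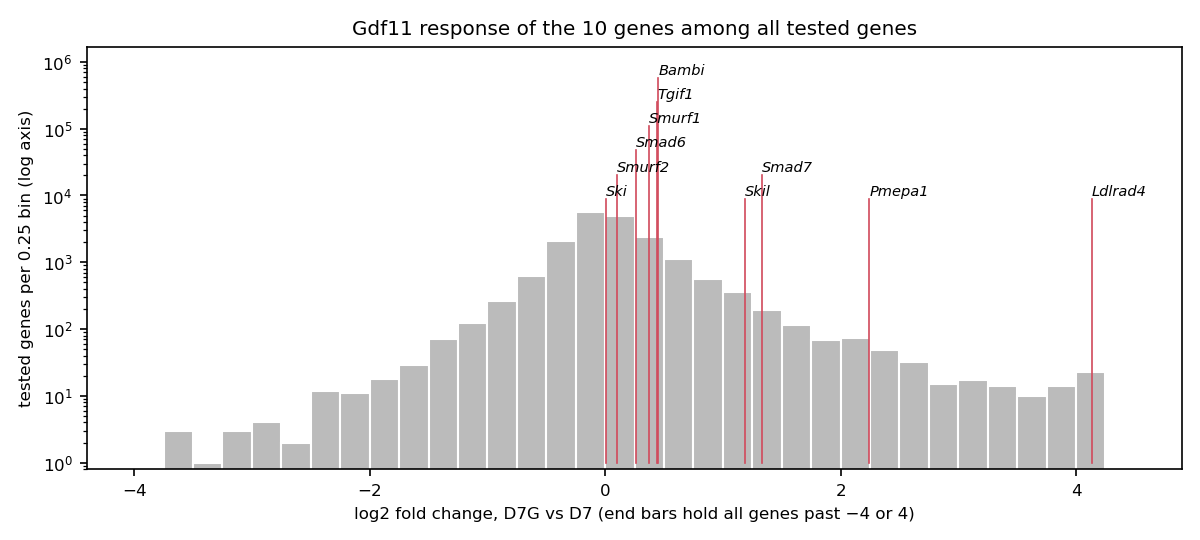
Number of tested genes (log axis) by log2 fold change in D7G against D7, in bins of 0.25 with the end bars holding all genes past -4 or 4; red lines mark the 10 inhibitors. Of these, 6 fall between 0 and 0.5, in the body of the distribution, and Skil, Smad7, Pmepa1 and Ldlrad4 fall in its upper tail.

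RefSeq promoter windows (GRCm38.p6, which has the coordinates of mm10) matched 5 of the 10 genes. The upstream sequences of the 2 Smurf genes and of Smad6 are shown because Smurf1 was called higher in every alternative, Smad6 in 8 of 18, and Smurf2 in none. They are written 5′ to 3′ on the genes' minus strand, for the bases upstream of the annotated gene, and capitals mark the 5-base sequence CAGAC, which Smad3 and Smad4 can contact, or its reverse complement GTCTG.
Smurf1, chr5:144965848-144966080: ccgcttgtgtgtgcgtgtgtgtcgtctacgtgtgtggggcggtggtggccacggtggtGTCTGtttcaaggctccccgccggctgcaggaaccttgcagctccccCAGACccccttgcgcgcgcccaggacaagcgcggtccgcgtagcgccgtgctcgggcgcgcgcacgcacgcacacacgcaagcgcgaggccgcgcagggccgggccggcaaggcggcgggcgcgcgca
Smurf2, chr11:106920716-106920965: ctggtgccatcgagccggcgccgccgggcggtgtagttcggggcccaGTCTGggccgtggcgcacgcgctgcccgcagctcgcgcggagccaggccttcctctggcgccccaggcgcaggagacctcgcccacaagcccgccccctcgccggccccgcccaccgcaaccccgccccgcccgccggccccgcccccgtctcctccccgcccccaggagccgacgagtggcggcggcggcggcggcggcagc
Smad6, chr9:64022060-64022309: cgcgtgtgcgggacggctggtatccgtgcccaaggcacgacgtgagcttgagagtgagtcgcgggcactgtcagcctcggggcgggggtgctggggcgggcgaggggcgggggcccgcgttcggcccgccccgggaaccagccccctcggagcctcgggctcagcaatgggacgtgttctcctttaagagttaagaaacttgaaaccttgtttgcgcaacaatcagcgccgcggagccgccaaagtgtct
The Smurf1 window held the 5-base sequence 2 times, the Smurf2 window 1 time and the Smad6 window 0 times, on either strand. Of 32841 RefSeq windows of 250 bases, 42.2% held it at least 1 time. The palindrome GTCTAGAC was in 0.2% of them and in none of these 3. A further sequence that was counted, GGCGC, was in 32.0% of all windows. On either strand it occurred 4 times in the Smurf1 window, 6 times in that of Smurf2 and 1 time in that of Smad6. The windows of Ski and Tgif1 are not shown. A match in so short a window is a description of the sequence and says nothing of binding.

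Related genes of the set had unequal fold changes in D7G against D7 cells. Within 1 library the ratio of the counts of 2 genes does not depend on scaling, and 4 pairs were compared. The Skil to Ski ratio was 1.03 and 1.05 in D7G libraries and 0.454 and 0.459 in D7 libraries. For Smad7 to Smad6 it was 4.73 and 4.92 in D7G libraries and 2.40 and 2.20 in D7 libraries. The Smurf1 to Smurf2 ratio was 0.791 and 0.816 in D7G libraries, against 0.651 and 0.678 in D7 libraries. In these 3 pairs both D7G libraries lay above both D7 libraries. The ratio of Pmepa1 to Ldlrad4 went the other way, with 6.67 and 6.08 in D7G libraries against 27.6 and 20.9 in D7 libraries, where Ldlrad4 had 11 and 15 counts. An exact two-sided permutation test gave p = 0.333 for each pair. That is the smallest value this test can give for 2 libraries against 2, so it cannot decide whether the ratios differ. On the log2 scale the D7G minus D7 difference of the Pmepa1 to Ldlrad4 ratio was -1.92, and -1.39 with the second deposited table. The other 3 differences were 1.07, 1.19 and 0.27 for Smad7 to Smad6, Skil to Ski and Smurf1 to Smurf2, and 1.06, 1.18 and 0.27 with that table. High ratios were not all confined to D7G cells. In D2 libraries Skil to Ski was 1.41 and 1.38, Smad7 to Smad6 5.89 and 4.68, and Smurf1 to Smurf2 0.603 and 0.608.

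**Figure D3:**
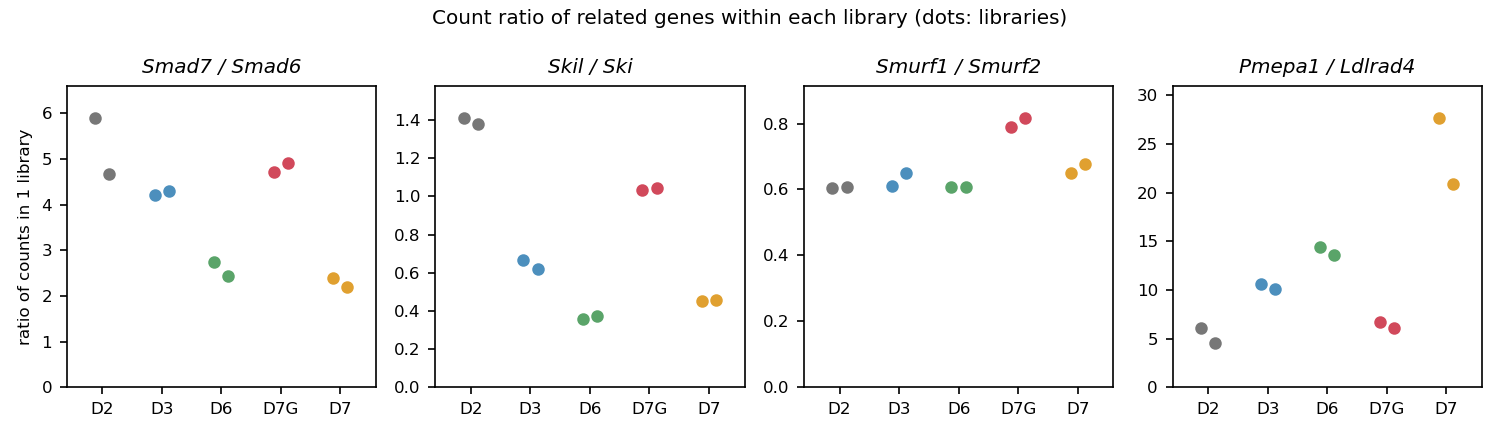
Ratio of the counts of 2 related genes within each library (dots), with groups D2, D3, D6, D7G and D7 from left to right and axes that start at 0. The Skil to Ski ratio is near 1 in D7G cells and under 0.5 in D7 and D6 cells, and the Pmepa1 to Ldlrad4 ratio is highest in D7 cells.

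Per kilobase of exon model, the order of levels within a group shifted too. In D7G cells Ski had the highest mean level, 30.4 CPM per kb, followed by Tgif1 and Skil at 18.1 each, Smurf2 at 16.8, Smurf1 at 13.1, Smad7 at 11.2, Pmepa1 at 8.95, Smad6 at 3.28, Bambi at 3.10 and Ldlrad4 at 2.77 CPM per kb. In D7 cells the order was Ski at 30.3, Smurf2 at 15.7, Tgif1 at 13.3, Smurf1 at 10.1, Skil at 7.93, Smad7 at 4.45, Smad6 at 2.73, Bambi at 2.26, Pmepa1 at 1.89 and Ldlrad4 at 0.157 CPM per kb. Ldlrad4 was thus the lowest of the 10 in both groups in spite of its fold change, and Ski the highest. Pmepa1 stood ninth in D7 cells and seventh in D7G cells.

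Before Gdf11 was given, the inhibitors followed separate courses. From D2 to D3, the day after CHIR99021 was added, 6 of 10 were called lower (Skil, Smad7, Tgif1, Smad6, Smurf2 and Smurf1), 2 were called higher (Pmepa1 and Ski) and 2 were not called (Ldlrad4 and Bambi). Of all tested genes, 58.5% were called, 28.9% lower and 29.6% higher, and the median log2 fold change was -0.31 over the 10 genes and 0.00 over all. Skil stood at 108 and 101 CPM on D3, against 188 and 191 CPM on D2 (log2 fold change -0.85 ± 0.04, edgeR adjusted p = 1.18e-12). Smad7 stood at 17.4 and 17.0 CPM on D3, against 29.3 and 25.1 CPM on D2 (-0.66 ± 0.08, adjusted p = 3.36e-07). For both genes every D3 library lay below every D2 library. The other falls were 0.20 to 0.36 on the log2 scale. Pmepa1 was higher by 0.45 ± 0.09 and Ski by 0.26 ± 0.04. The Smad6 call (adjusted p = 0.0210) was lost in 5 of 18 alternatives and that of Smurf1 (adjusted p = 0.00262) in 3.

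Over the next 3 days, from D3 to D6, 3 of the 10 were called higher and 4 lower, against 65.7% called among all tested genes (32.4% higher, 33.3% lower). Skil and Tgif1 were lower again, with Tgif1 at 71.4 and 72.6 CPM on D6 against 111 and 120 CPM on D3 (log2 fold change -0.68 ± 0.04, edgeR adjusted p = 3.43e-11). Ldlrad4 had 17 and 16 counts on D6 against 31 and 34 on D3, a log2 fold change of -0.90 ± 0.30 (adjusted p = 0.0115) that 2 of 18 alternatives did not call. Pmepa1, which had been higher on D3, was lower on D6 by -0.46 ± 0.09. Smad6 was higher, with 6.21 and 7.43 CPM on D6 against 4.14 and 3.95 CPM on D3 (0.75 ± 0.12, adjusted p = 1.49e-05). Bambi was higher by 0.42 ± 0.09 and Ski by 0.18 ± 0.04, and Smad7, Smurf1 and Smurf2 were not called. By D6, Skil and Tgif1 were therefore at the lowest level of their course, and Ski at its highest.

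From D6 to D7 without Gdf11 the differences were small, the called ones between 0.13 and 0.36 in size on the log2 scale. Smad6, Pmepa1, Smurf1, Skil and Smurf2 were called higher and Ski lower, where 36.0% of all tested genes were called, 20.5% higher and 15.6% lower. The largest was Smad6, with 8.83 and 8.70 CPM on D7 against 6.21 and 7.43 CPM on D6 (log2 fold change 0.36 ± 0.11, edgeR adjusted p = 0.0106). Only the Smurf1 call (0.28 ± 0.05, adjusted p = 0.000263) was kept by all 18 alternatives. The number called higher was 3 with DESeq2, 3 without D6 replicate 1, 2 without D7 replicate 1 and 1 without D7 replicate 2, and the Ski call was lost with library totals and without D6 replicate 1. Smad7, Ldlrad4, Bambi and Tgif1 were not called.

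**Figure D4:**
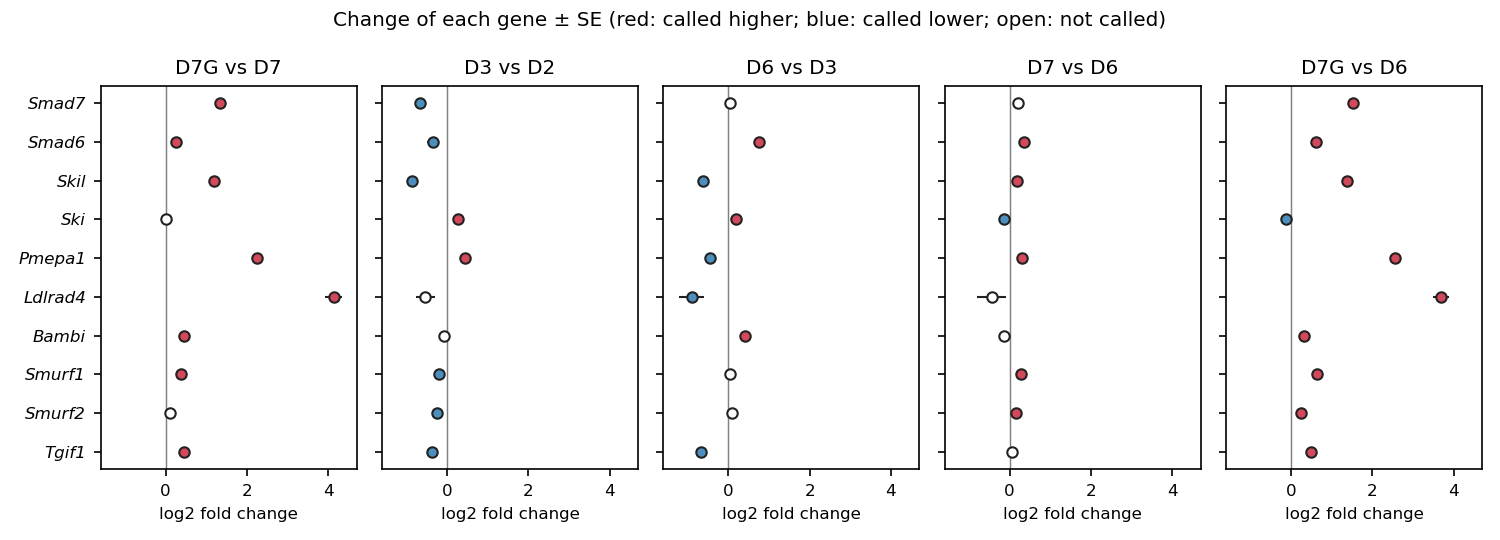
Log2 fold change ± SE of each gene in 5 comparisons of the edgeR fit (red, called higher; blue, called lower; open, not called). The 2 comparisons that involve D7G hold the largest changes, 4.13 for Ldlrad4 and 2.24 for Pmepa1 against D7, while the largest between successive untreated groups is -0.90, for Ldlrad4 in D6 against D3.

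Set against the day on which Gdf11 was added, D7G cells had 9 of the 10 inhibitors called higher than D6 cells and 1, Ski, called lower, against a background of 52.8% called among all tested genes (30.6% higher, 22.2% lower). This comparison shares its D7G libraries with the one against D7, so the pair are not independent. The log2 fold changes were 3.69 ± 0.21 for Ldlrad4, 2.56 ± 0.08 for Pmepa1, 1.53 ± 0.07 for Smad7 and 1.38 ± 0.04 for Skil, and 0.24 to 0.65 for the other 5 that were higher. Ski was lower by -0.13 ± 0.04 (edgeR adjusted p = 0.00993), a call that was lost without D6 replicate 1 and kept in the other 17 alternatives.

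Against D2, the earliest day, D7G cells had 7 of the 10 inhibitors called higher and 2 called lower, against 71.4% called among all tested genes (36.1% higher, 35.3% lower). Pmepa1 was higher by 2.54 ± 0.08, Ldlrad4 by 2.26 ± 0.17, Smad6 by 1.02 ± 0.11 and Smad7 by 0.90 ± 0.07 on the log2 scale. Tgif1 stayed lower by -0.54 ± 0.04 (edgeR adjusted p = 4.16e-10). Skil came within -0.11 ± 0.04 of its D2 level (adjusted p = 0.0227), and 4 of 18 alternatives did not call that difference, with adjusted p from 0.000964 to 0.121. Without Gdf11, D7 cells stood below D2 by -1.30 ± 0.04 for Skil, by -0.99 ± 0.04 for Tgif1, by -0.44 ± 0.08 for Smad7 and by -1.88 ± 0.29 for Ldlrad4. In the authors' deposited table the log2 fold changes of D7G against D2 were 2.49 for Pmepa1, 2.22 for Ldlrad4, 0.85 for Smad7, -0.16 for Skil and -0.59 for Tgif1.

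Across the 5 groups, 7 of the 10 genes had their highest mean level in D7G cells, Skil and Tgif1 had it on D2, and Ski on D6. In 6 of these 7 the difference from the next group was called, although the Smad6 call was lost in 10 of 18 alternatives. Of all 18818 tested genes, 21.1% had their highest mean in D7G cells and 9.17% were also called over the next group. For Smurf2, D7G, D2 and D7 could not be separated (adjusted p = 0.0820 for D7G against D2 and 0.751 for D7 against D2). The lowest level fell on D3 for Smad7, Smad6, Bambi, Smurf1 and Smurf2. It fell on D6 for Skil, Pmepa1 and Tgif1, on D7 for Ldlrad4 and on D2 for Ski. Neighbours in the order often did not differ beyond their spread. Besides those of Smurf2, the neighbours not called were D6 and D3 for Smad7, Smurf1 and Smurf2, D7 and D6 for Smad7, Ldlrad4, Bambi and Tgif1, D7 and D3 for Pmepa1 and Ski, D6 and D2 for Pmepa1, D3 and D2 for Bambi and Ldlrad4, and D7G and D7 for Ski. The Bambi and Smurf1 calls of D7 against D2 were at the threshold (edgeR adjusted p = 0.0477 and 0.0463).

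Other parts of the pathway were listed by role, with earlier results of these data known, so the counts of these lists are descriptions. Beside them, 22.5% of all tested genes were called higher in D7G than in D7 cells and 18.2% lower. Of 9 tested receptors and Smads of the Activin type, 2 were called higher and 4 lower in D7G than in D7 cells, with a median log2 fold change of -0.03. Tgfbr2, the type 2 receptor for Tgf-beta, stood at 24.6 and 23.9 CPM in D7G libraries, against 9.40 and 9.21 CPM in D7 libraries, and was higher by 1.38 ± 0.09 (edgeR adjusted p = 1.86e-10). Acvr2b, a type 2 receptor that binds Gdf11, was lower by -0.49 ± 0.05, and Tgfbr3, a coreceptor, by -0.32 ± 0.08. Smad4 and Smad3 were not called. The other higher call was Smad2 (0.17 ± 0.05). The number called higher was 1 with no filter, without D7G replicate 2 or without either D7 library, and the number called lower was 2 without D7G replicate 2 or without D7 replicate 1.

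Of the 8 receptors and Smads of the Bmp type, 6 were called higher, with a median of 0.42. Bmpr2, a type 2 receptor, was higher by 0.85 ± 0.05 and Smad5 by 0.47 ± 0.04. Acvrl1 (0.76 ± 0.30, edgeR adjusted p = 0.0479) was at the threshold, and only 3 of the 8 were called without D7 replicate 2. Of 14 other intracellular regulators that were tested, 6 were called higher and 2 lower, with a median of 0.10. These included Tob1, an antiproliferative protein that binds Smads, higher by 0.41 ± 0.06, Rnf111, a ligase that degrades Ski and SnoN, higher by 0.27 ± 0.05, and Trim33, a ligase that binds Smads, higher by 0.20 ± 0.04. In this list 3 were called higher with DESeq2, with no filter, and without either D7 or either D3 library, and 1 was called lower without either D2 library or without D7 replicate 1. Beside Tgif1, its paralogue Tgif2 was higher by 0.14 ± 0.05 (edgeR adjusted p = 0.0271).

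Of 14 genes listed as targets of Smad2 and Smad3, 13 were called higher, with a median log2 fold change of 0.88. Cdkn2b, a cell cycle inhibitor, was higher by 1.62 ± 0.12, Tagln, an actin-binding protein, by 1.47 ± 0.07 and Col1a1 by 3.14 ± 0.08. Lefty1 and Lefty2, secreted inhibitors of Nodal, were higher by 1.05 ± 0.08 and 0.96 ± 0.07. The exception was Tgm2 (-0.26 ± 0.16, edgeR adjusted p = 0.205). Of 10 Bmp targets, 4 were called higher and 2 lower, with a median of 0.29. Msx2 was higher by 1.46 ± 0.11, Id4 by 0.87 ± 0.11 and Id2 by 0.35 ± 0.07, while Id3 was lower by -0.29 ± 0.07; with DESeq2, 1 was called lower.

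All 8 genes of Wnt feedback on the list were called higher as well, with a median of 0.51. Dkk1, a secreted inhibitor of Wnt receptors, was higher by 1.35 ± 0.13, Nkd1 by 0.98 ± 0.06, Notum by 0.56 ± 0.06 and Axin2 by 0.47 ± 0.06. With no filter on low counts, or without D7 replicate 2, 5 of the 8 were called. Of 12 nuclear partners and cofactors of Smads, 7 were called higher, with a median of 0.20. The homeobox genes Mixl1 and Gsc were higher by 1.93 ± 0.46 and 1.81 ± 0.32 and Fosl1 by 1.19 ± 0.36. The general corepressors Ncor1, Sin3a, Hdac1 and Ctbp1 were not called. Without either D7G library, 1 gene of this list was called lower.

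**Figure D5:**
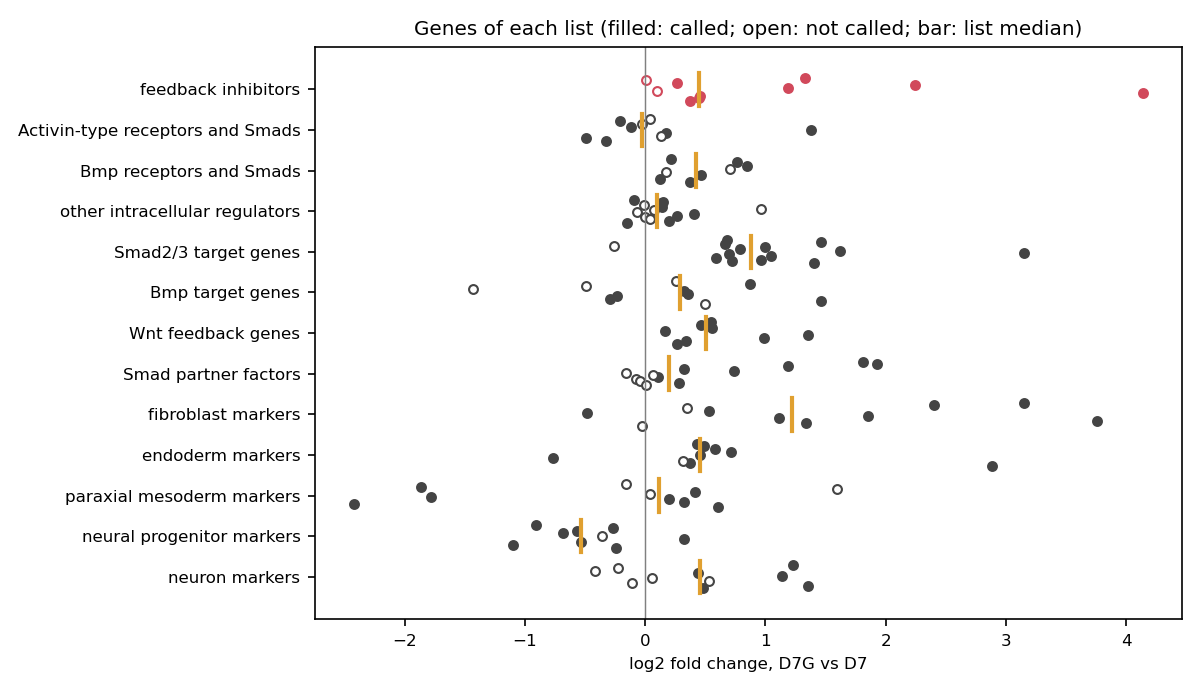
Log2 fold change in D7G against D7 of every tested gene of 13 lists (filled, called; open, not called; orange bar, list median), with the 10 feedback inhibitors at the top. The medians of the inhibitors, 0.45, and of the Smad2 and Smad3 targets, 0.88, lie right of 0, and that of the Activin-type receptors and Smads, -0.03, lies at 0.

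The Smad2 and Smad3 targets also changed before Gdf11. From D2 to D3, 6 of 14 were called higher and 5 lower (median log2 fold change 0.16). Among all tested genes 29.6% were called higher and 28.9% lower. From D3 to D6, 3 were higher and 11 lower (median -1.17), against 32.4% higher and 33.3% lower among all tested genes. Col1a1 was lower on D6 than on D3 by -3.58 ± 0.10 and Gadd45b by -2.70 ± 0.11. From D6 to D7, 8 were called higher and 1 lower (median 0.41), and the lower one was lost in 7 of 18 alternatives. Among all tested genes 20.5% were called higher and 15.6% lower. In D7G against D6, 13 were called higher and 0 lower (median 1.37), against 30.6% higher and 22.2% lower among all tested genes. Among the inhibitors the medians of these 4 comparisons were -0.31, 0.04, 0.17 and 0.64.

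Markers of other cell types also differed between D7G and D7 cells, where 22.5% of all tested genes were called higher and 18.2% lower. The summed level of 10 fibroblast markers was 1096 and 1226 CPM in D7G libraries, against 440 and 414 CPM in D7 libraries. Much of these sums was Col3a1, with means of 659 CPM in D7G cells and 261 CPM in D7 cells. Of the 10 markers, 7 were called higher and 1 lower. Lum (3.75 ± 0.21), Col1a1 and Col1a2 (2.40 ± 0.08) led. Col1a1 is also on the list of Smad2 and Smad3 targets. The lower one was Fap (-0.48 ± 0.13), and Dcn and Fbln2 were not called. Dcn, a marker of embryonic fibroblasts, stood at 0.658 and 0.684 CPM in D7G libraries, against 0.778 and 0.271 CPM in D7 libraries and 4.36 and 4.51 CPM in D2 libraries. Thy1, another, stood at 1.13 and 1.09 CPM in D7G libraries, against 0.598 and 0.422 CPM in D7 libraries and 8.81 and 9.58 CPM in D2 libraries. Both were thus lower in the treated cells than on D2, but over the whole list, 7 fibroblast markers were called higher and 3 lower in D7G than in D2 cells, with a median log2 fold change of 1.35. Of all tested genes, 36.1% were called higher and 35.3% lower in D7G than in D2 cells. No fibroblast marker was at 0 in any group. The 10 endoderm markers summed to 271 and 223 CPM in D7G libraries and 201 and 197 CPM in D7 libraries, 7 of 9 tested were higher and 1 lower, and Cer1 was at 0 in D7 cells.

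The 10 neuron markers summed to 281 and 288 CPM in D7G libraries and 158 and 161 CPM in D7 libraries. Of them 5 were called higher, among them Dcx (1.35 ± 0.08), Map2 (1.23 ± 0.07) and Tubb3 (1.13 ± 0.05). Neural progenitor markers summed to 453 and 461 CPM in D7G libraries and 602 and 618 CPM in D7 libraries, with 7 of 9 called lower and 1 higher; Irx3 was lower by -1.10 ± 0.06, Hes5 by -0.91 ± 0.08 and Sox1 by -0.68 ± 0.06. Paraxial mesoderm markers summed to 108 and 109 CPM in D7G libraries and 104 and 105 CPM in D7 libraries. Much of these sums was Pax3, with means of 62.5 CPM in D7G cells and 54.6 CPM in D7 cells. Of these markers 4 were called higher, 3 lower and 3 not called. The lower ones were Meox1 (-2.42 ± 0.15), Foxc2 (-1.86 ± 0.21) and Hes7 (-1.78 ± 0.42). Without any 1 of the D7G or D7 libraries, 2 paraxial mesoderm markers and 0 neural progenitor markers were called higher, and without D7G replicate 1 a neuron marker was called lower. The part of these cell types in the change of the inhibitors was not tested. On the earlier days the fibroblast sum was 205 and 249 CPM on D2, 400.7 and 400.2 CPM on D3 and 306 and 301 CPM on D6.

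The genes whose profile over the 10 libraries was most like those of the 2 leading inhibitors were found by Pearson correlation of log2 CPM among 10758 genes. These values describe the libraries, which share their groups, and carry no test. Ldlrad4 was nearest to Pdzd2 (r = 0.988), the matrix metalloprotease gene Mmp2 (0.981) and Sgk3 (0.979). Pmepa1 was nearest to Cttnbp2nl (r = 0.987), the integrin gene Itgav (0.982) and Mfap4 (0.980). Mean levels were 28.3 CPM in D7G cells against 2.48 CPM in D7 cells for Pdzd2, 99.8 against 27.2 CPM for Mmp2 and 13.6 against 10.0 CPM for Sgk3. For Cttnbp2nl they were 78.2 CPM in D7G cells against 48.8 CPM in D7 cells, for Itgav 113 against 61.7 CPM and for Mfap4 33.8 against 5.61 CPM.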

How the data were processed

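Deposited by the authors were raw counts by symbol, raw counts by Ensembl ID (55298, of which 54409 had a symbol), and a list of 14983 genes with log2 fold changes against D2 and p values. The submitters' processing notes name STAR, limma, HISAT2 (2.1.0), featureCounts (1.6.3) and mm10; the role of each tool, the counting options and the use of strand are not given in the sources used here. The authors' p values are not quoted.

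Raw counts by symbol were fitted in edgeR 4.0.16 (R 4.3.3) as 1 quasi-likelihood model of all 10 libraries, with 5 residual degrees of freedom, TMM scaling, the default filterByExpr (18818 genes kept) and Benjamini-Hochberg adjustment over them. The method was also run on counts simulated with the replicate variation of this fit, which cannot check that variation. The common dispersion of 0.00111 corresponds to 3.34% variation among replicates, and the median SE was 0.0867 to 0.09 on the log2 scale. Alternatives were other scalings, DESeq2 1.42.0, other filters, the second table, fewer groups, a replicate term and each library left out.

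Members and gene lists were chosen with earlier results of these data known. Each comparison names all members and, per list, up to 3 called genes with the largest change. Axin2, Lefty1, Lefty2, Smad2, Tgif2, Id3, Dcn, Thy1, Col3a1, Fap, Pax3 and genes named as not called were added after their values were seen. So were the comparison with D2, the list counts under alternatives, the share of genes highest in D7G cells and the ratios of gene pairs.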

Additional observations from a re-analysis of the deposited data

How the results depend on the processing

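Of 50 comparisons of a single inhibitor in the 5 planned contrasts, 39 were called; 28 of these calls were kept in all 18 alternatives and 11 were lost in at least 1, while 3 values that were not called became so in at least 1. No called value turned its direction. In D7G against D7, 7 to 8 inhibitors were higher and 0 lower when any 1 library was left out. The count of inhibitors lower in D7G than in D6 was 1, and 0 to 1 with a library left out (0 without D6 replicate 1). Against D2, 2 were lower in D7G, 1 with library totals, 1 with DESeq2 and 1 to 2 with a library left out. Between D7 and D6, 5 inhibitors were higher, 3 with DESeq2 and 1 to 6 with a library left out; 1 was lower, 0 with library totals and 0 to 1 with a library left out. All genes called higher in D7 than in D6 numbered 3853, and 2294 to 3607 with a library left out, the lowest without D7 replicate 2. The cause of these shifts was not tested. A fit that leaves out a library assumes that the lone library of that group varies like the other groups.

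The replicate numbers left no shared pattern between groups. For each gene, the deviation of replicate 1 from its group mean was taken in log2 CPM. Correlated over genes between groups, these deviations gave 10 values from -0.0418 to 0.0487. Such low values do not show whether the samples were paired by design. With the replicate block, 4304 genes were higher and 3503 lower in D7G than in D7, against 4241 and 3420, and the inhibitors stayed at 8 and 0. Smurf2 was then called higher in D6 than in D3 (0.09, edgeR adjusted p = 0.0482). Scaling choices moved the median of all genes by under 0.1. With library totals, the share of calls that were higher was 66.1% in D7 against D6 (56.8% with TMM), 60.5% in D3 against D2 (50.6%), 41.6% in D6 against D3 (49.4%), 63.3% in D7G against D6 (57.9%) and 55.2% in D7G against D7 (55.4%). Depth limits Ldlrad4 most, with 11 to 51 counts in untreated libraries.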
